A study of Mus musculus with 8 samples.

Results

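The genes described here are 9 regulators and effectors of muscle protein loss: the ubiquitin ligases Trim63, Fbxo32 and Fbxo30, the transcription factors Foxo1, Foxo3 and Foxo4, the histone deacetylase Hdac4, the transcription factor Klf15 and the lysosomal protease Ctsl. They were chosen by name, and each was read from its probe set with the highest mean over all arrays, among probe sets annotated to exactly 1 gene. All 9 were measured, out of 19938 genes in all. RNA came from the soleus, a calf muscle rich in slow fibres that holds posture, and was taken in the basal state from males 5 months old. The 4 Ts65Dn mice carry a small extra chromosome, so that the distal part of mouse chromosome 16 and the centromeric part of chromosome 17 are present in 3 copies, and they are used as a model of Down syndrome. The 4 wild-type mice were colony controls on B6EiC3SnF1/J, a mixed B6 and C3H background. Each mouse gave 1 Affymetrix array, and values are log2 RMA values, on which a difference of 1 is a doubling. None of the 9 genes lies on chromosome 16 or 17, so none is present in an extra copy in Ts65Dn. As a model the strain is limited here to males, and its extra part of chromosome 17 lies outside the region that matches human chromosome 21.

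The 9 genes belong to the best known programme of muscle wasting. Insulin and IGF-1 act through the kinase Akt, which phosphorylates FoxO factors and holds them out of the nucleus. When that signal falls, as in fasting, disuse or glucocorticoid excess, FoxO factors enter the nucleus and switch on Trim63 (MuRF1), Fbxo32 (atrogin-1 or MAFbx), Fbxo30 (MUSA1) and lysosomal genes such as Ctsl. Klf15, which glucocorticoids induce, and Hdac4, which accumulates after denervation, feed into the same ligases. Much of this control acts on protein location, which RNA arrays do not read, whereas the RNA of Trim63 and Fbxo32 rises strongly in many forms of atrophy.

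The promoter of Trim63 is shown because it holds the letters through which FoxO and the glucocorticoid receptor are known to act, and that of Klf15 because Klf15 had the smallest p of the 9 genes. Both run 5′ to 3′ from 250 bases before to 50 bases after the annotated start, from RefSeq on GRCm38.p6. Trim63 is from chr4:134314870-134315169 and Klf15 from chr6:90462326-90462625, both on the plus strand. Capitals mark the FoxO motif and the glucocorticoid palindrome in Trim63, and the E-box CACGTG in Klf15.
Trim63: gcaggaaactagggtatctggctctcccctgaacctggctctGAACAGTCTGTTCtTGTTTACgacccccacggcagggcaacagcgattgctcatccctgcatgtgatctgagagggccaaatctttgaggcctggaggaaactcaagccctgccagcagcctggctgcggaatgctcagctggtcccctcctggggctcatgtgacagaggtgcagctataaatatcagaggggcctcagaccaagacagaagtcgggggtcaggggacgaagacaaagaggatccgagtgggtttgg
Klf15: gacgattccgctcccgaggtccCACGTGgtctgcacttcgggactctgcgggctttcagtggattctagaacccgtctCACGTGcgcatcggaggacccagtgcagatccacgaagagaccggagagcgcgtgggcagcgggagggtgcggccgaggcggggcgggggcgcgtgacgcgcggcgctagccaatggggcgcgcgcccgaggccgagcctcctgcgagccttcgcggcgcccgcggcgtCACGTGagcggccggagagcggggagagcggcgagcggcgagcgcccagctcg
In Trim63 the FoxO motif, searched as GTAAACA on both strands, lay 188 to 194 bases before the start. The glucocorticoid palindrome, a form of that receptor's element searched as GNACA and TGTNC with any 3 bases between them, lay 196 to 208 bases before it, and 1 base separated it from the FoxO motif. Of 32851 promoters of the same length, 3.65% held the FoxO motif, 0.475% the palindrome and 0.0152% (5 promoters) both. The receptor's single-arm motif, searched as AGAACA on both strands and overlapping the palindrome, stood 195 to 200 bases before the start of Trim63 and in 19% of all promoters. A TATA box (TATAAA, either strand) stood 26 to 31 bases before the start of Trim63, and in 13.6% of all promoters. Among the 7 of the 9 genes with a promoter in the table, Trim63 was the only one with any of these 4 motifs. Klf15 held 3 copies of CACGTG, the letters bound by the clock factors and by other E-box factors, and Ctsl held 1 copy. At least 1 copy stood in 7.15% of all promoters, and 3 or more in 0.0883%. These are matches of letters in 1 window and do not show binding.

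The labelled tissue was checked on its defining genes, which were bright. The 12 genes of skeletal muscle and slow fibres had a mean level of 11.48 to 11.61 in Ts65Dn and 11.39 to 11.54 in wild type, and 0 of them passed the test by limma. At an unadjusted p under 0.05 there was 1 (Des, 0.32), beside 34.8% of all genes. Of the other cell types, fibroblast markers had 1 of 7 called higher, Pdgfra (0.62), beside 2.32% of all genes, with 4 positive and 3 negative values. Pdgfra was still called with level matching (0.76, limma adjusted p = 0.0445), but not with quantile normalization or without any 1 Ts65Dn array. Schwann cell markers had 0 of 4 called and red cell markers 0 of 2. The arrays themselves differed between the groups. The array median was 4.23 to 4.29 in Ts65Dn and 4.37 to 4.56 in wild type, and the interquartile range 3.01 to 3.12 against 2.62 to 2.93, narrowest in wild-type replicates 2 and 3. Bright genes tended to positive and dim genes to negative differences: the median log2 fold change was 0.26 for genes at a level of 8 to 9, -0.22 at 5 or less and -0.10 over all genes, which became 0.08 after centring. For this reason a level-matched difference is given beside many of the deposited ones. In it, the median deviation of the 100 other genes nearest in level is subtracted in each array. Deposited values printed alone carry no such correction.

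None of the 9 genes passed limma's test between Ts65Dn and wild type at a Benjamini-Hochberg adjusted p under 0.05, beside 5.26% of all genes. At an unadjusted p under 0.05, 1 of the 9 passed, Klf15, beside 34.8% of all genes. The values of the 9 genes had a median log2 fold change of 0.10, with 6 positive and 3 negative, and a level-matched median of -0.01. With the arrays quantile normalized once more the median was 0.01 and the calls were again 0.

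**Figure D1:**
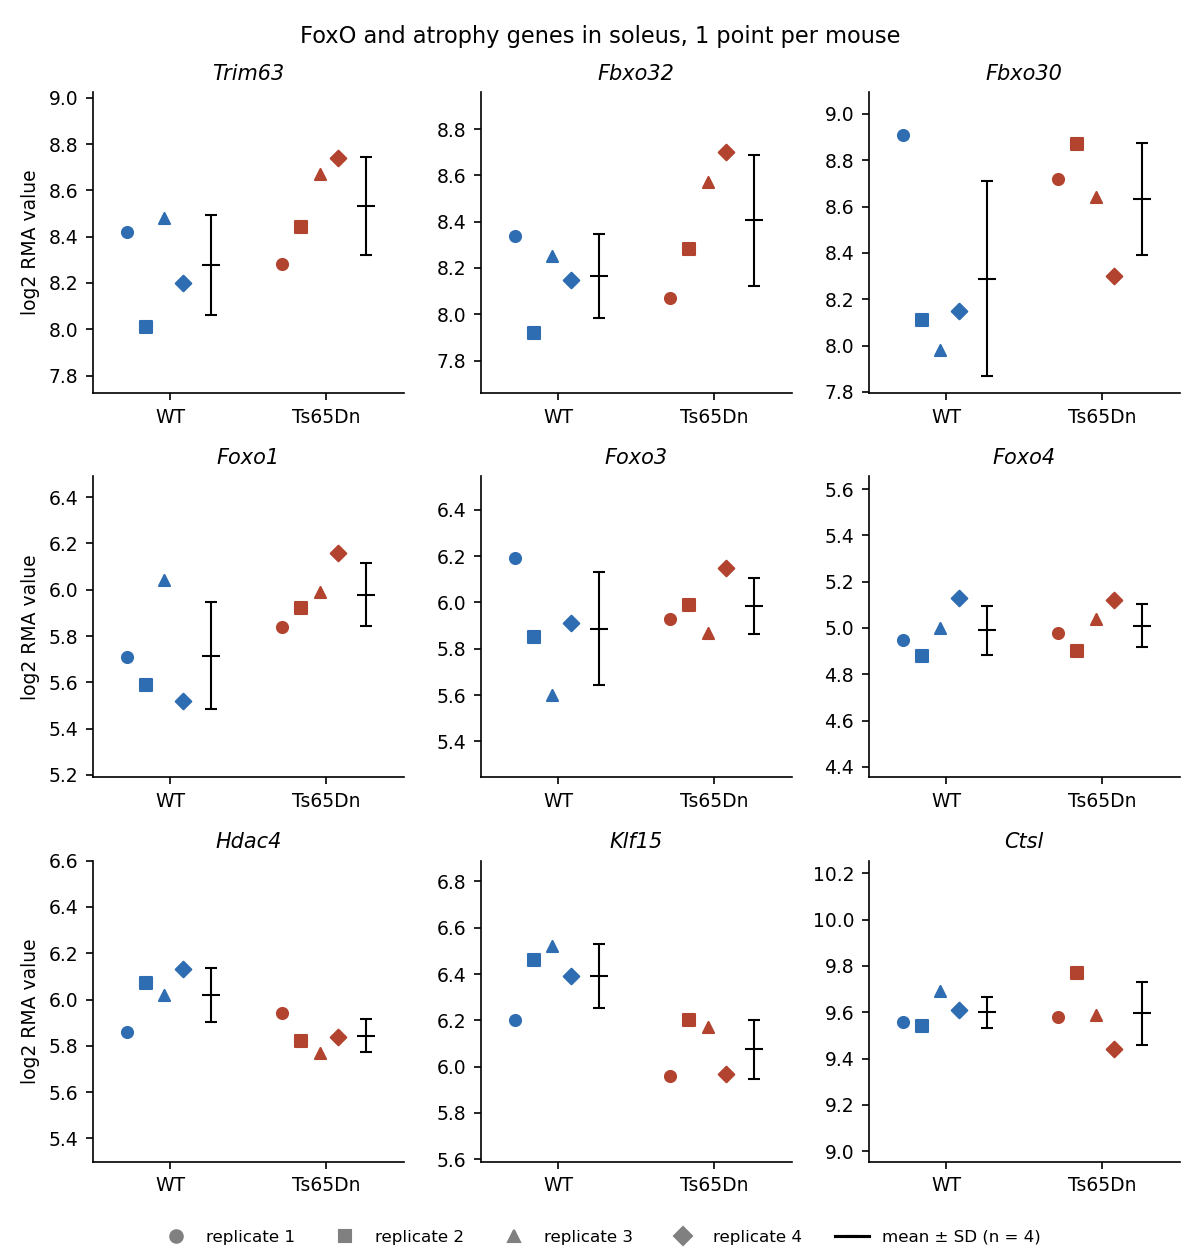
Log2 RMA values (vertical axis, the same span of 1.3 in each panel) of the 9 genes in the 4 wild-type (blue) and 4 Ts65Dn (red) mice, with the mean ± SD of each group at its right. The groups overlap in every gene except Klf15, where the highest Ts65Dn and the lowest wild-type value nearly touch.

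The first group of genes are the ubiquitin ligases. Trim63, which tags myosin and other thick-filament proteins for the proteasome, was at 8.28, 8.44, 8.67 and 8.74 in Ts65Dn replicates 1 to 4 and at 8.42, 8.01, 8.48 and 8.20 in wild-type replicates 1 to 4. Ts65Dn replicates 3 and 4 lay above every wild-type array, and the other 2 lay within the wild-type range. The means were 8.53 ± 0.21 and 8.28 ± 0.22 (SD, n = 4, on the log2 scale), a log2 difference (Ts65Dn minus wild type) of 0.25 (SE 0.15, limma adjusted p = 0.243, exact two-sided permutation p = 0.143). Its 95% interval ran from -0.08 to 0.59, or from 0.946-fold to 1.5-fold. The 100 genes nearest in level had a median log2 fold change of 0.30, and the level-matched difference was -0.03.

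Fbxo32, the substrate-binding subunit of an SCF ligase that acts on MyoD and on a translation factor, followed a similar order among the mice. It was at 8.07, 8.28, 8.57 and 8.70 in Ts65Dn and at 8.34, 7.92, 8.25 and 8.15 in wild type. Again Ts65Dn replicates 3 and 4 were the highest of all 8 arrays and wild-type replicate 2 the lowest. The log2 fold change was 0.24 (SE 0.16, limma adjusted p = 0.291, exact permutation p = 0.229), with an interval of -0.11 to 0.60 and a level-matched value of -0.01. For Trim63 and Fbxo32 the direction thus turned with level matching, and neither is given a direction here. Over 5 scalings of the arrays the upper bound of the 95% interval was at most 1.71-fold for Trim63 and 1.73-fold for Fbxo32.

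Fbxo30, an F-box protein that is held down by BMP signalling and induced by denervation, was at 8.72, 8.87, 8.64 and 8.30 in Ts65Dn and at 8.91, 8.11, 7.98 and 8.15 in wild type. All 4 Ts65Dn arrays lay above wild-type replicates 2, 3 and 4, and all lay below wild-type replicate 1, the highest of the 8. The log2 fold change was 0.35 (SE 0.21, limma adjusted p = 0.247). Without wild-type replicate 1 it was 0.55 with a limma adjusted p of 0.0457, and in the remaining alternatives it ran from 0.10 to 0.53 and did not pass. The level-matched difference was 0.11. Fbxo30 was therefore the only one of the 9 genes that passed under any alternative, and there through 1 array. Leaving out that array raised the count of called genes from 1049 to 2865 of all 19938, so the call is not particular to Fbxo30.

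The second group are the FoxO factors. Foxo1 was at 5.84, 5.92, 5.99 and 6.16 in Ts65Dn and at 5.71, 5.59, 6.04 and 5.52 in wild type. Every Ts65Dn array lay above 3 of the 4 wild-type arrays, and wild-type replicate 3 lay among the Ts65Dn arrays. The means were 5.98 ± 0.13 and 5.71 ± 0.23 (SD, n = 4, on the log2 scale), a log2 difference (Ts65Dn minus wild type) of 0.27 (SE 0.14, limma adjusted p = 0.197) and a level-matched value of 0.16. Foxo1 is also active in endothelial cells, and of 7 endothelial markers 5 had positive and 2 negative values. By limma 2 were called higher, Kdr (0.99) and Emcn (1.18), beside 2.32% of all genes. With level matching Kdr was still called and Emcn was not (limma adjusted p = 0.0563), and neither was called without any 1 Ts65Dn array or without both wild-type replicates 2 and 3. The mean level of the 7 was 5.78 to 6.07 in Ts65Dn against 5.15 to 5.58 in wild type. The part of these cells in the value of Foxo1 was not tested, and in whole muscle more cells of a type cannot be told apart from more RNA per cell.

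Foxo3, the factor most often tied to Fbxo32 induction and to autophagy genes, was at 5.93, 5.99, 5.87 and 6.15 in Ts65Dn and at 6.19, 5.85, 5.60 and 5.91 in wild type. The Ts65Dn arrays lay within the wild-type range, at a log2 fold change of 0.10 (interval -0.21 to 0.42, limma adjusted p = 0.623), which was -0.06 without wild-type replicates 2 and 3. Foxo4, a FoxO factor also expressed in muscle, was at 4.98, 4.90, 5.04 and 5.12 against 4.95, 4.88, 5.00 and 5.13. Both groups spanned nearly the same values, and the log2 fold change was 0.02 (interval -0.23 to 0.27, limma adjusted p = 0.908). The level-matched value of Foxo4 was 0.24, since the genes nearest to it in level had a median of -0.24, and it was -0.03 without wild-type replicates 2 and 3.

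The third group act beside FoxO. Hdac4, a class IIa deacetylase that represses Dach2 and so releases myogenin after denervation, was at 5.94, 5.82, 5.77 and 5.84 in Ts65Dn and at 5.86, 6.07, 6.02 and 6.13 in wild type. Ts65Dn replicates 2, 3 and 4 lay below every wild-type array, and replicate 1 lay above wild-type replicate 1. The log2 fold change was -0.18 (SE 0.11, limma adjusted p = 0.266, exact permutation p = 0.0571), and became 0.01 after centring the arrays on their medians. A second probe set of Hdac4 gave -0.11. Of the other class IIa members, which were named after their values were seen, Hdac5 was at -0.05, Hdac7 at -0.46 and Hdac9 at 0.13, all as log2 fold changes, with limma adjusted p-values of 0.804, 0.0742 and 0.433. Level matching brought Hdac7 to -0.30 and turned Hdac9 to -0.26, and centring turned Hdac5 to 0.13.

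Klf15, a zinc finger factor that drives breakdown of branched-chain amino acids and is induced by glucocorticoids and by the daily clock, was at 5.96, 6.20, 6.17 and 5.97 in Ts65Dn and at 6.20, 6.46, 6.52 and 6.39 in wild type. The groups did not overlap, but only by a hair: Ts65Dn replicate 2 was at 6.202 and wild-type replicate 1 at 6.204. Groups without overlap were found for 1 of the 9 genes, beside 22.7% of all genes, with Ts65Dn below for 15.9% and above for 6.81% of all genes, so that the share among the 9 was not above the background. The means were 6.08 ± 0.13 and 6.40 ± 0.14 (SD, n = 4, on the log2 scale), a log2 difference (Ts65Dn minus wild type) of -0.32 (interval -0.59 to -0.05, limma adjusted p = 0.0996, exact two-sided permutation p = 0.0286, the lowest value possible with 4 and 4 arrays). Klf15 did not pass in any of the alternatives, with limma adjusted p-values of 0.0638 to 0.410. Its direction was the same in all 19 settings, from -0.14 with each array centred on its median to -0.56 with level matching. Genes at its level had a median of 0.29, so that Klf15 stood further below them than below 0.

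Klf15 is also expressed by adipocytes. Of 7 adipocyte markers 0 were called, and Pck1 (-0.46) and Plin1 (-0.34) lay lower in every Ts65Dn than in every wild-type array, as did 15.9% of all genes. Level matching brought them to -0.19 and -0.13, and the median of the 7 from -0.34 to -0.13. Adipoq was at 0.23 (level-matched 0.07). The mean level of the 7 was 5.41 to 5.94 in Ts65Dn and 5.77 to 6.29 in wild type. The part of fat cells in the value of Klf15 was not tested.

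Ctsl, a lysosomal cysteine protease that rises in most models of atrophy, was at 9.58, 9.77, 9.59 and 9.44 in Ts65Dn and at 9.56, 9.54, 9.69 and 9.61 in wild type. The highest and the lowest array were both Ts65Dn. The log2 fold change was -0.01 (SE 0.11, limma adjusted p = 0.975), with an interval of -0.26 to 0.25, or 0.835-fold to 1.19-fold, and over the 19 settings it ran from -0.17 to 0.18. The macrophage lysosomal protein Cd68 was called higher (2.39), but not with level matching (limma adjusted p = 0.0909), with quantile normalization or without any 1 of the Ts65Dn arrays. Of 11 macrophage markers Cd68 was the only one called, beside 2.32% of all genes called higher. Among the 11, 7 had positive and 4 negative values, with a median of 0.09 (0.30 level-matched). Their mean level, Cd68 included, was 4.68 to 5.24 in Ts65Dn and 4.47 to 4.64 in wild type.

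**Figure D2:**
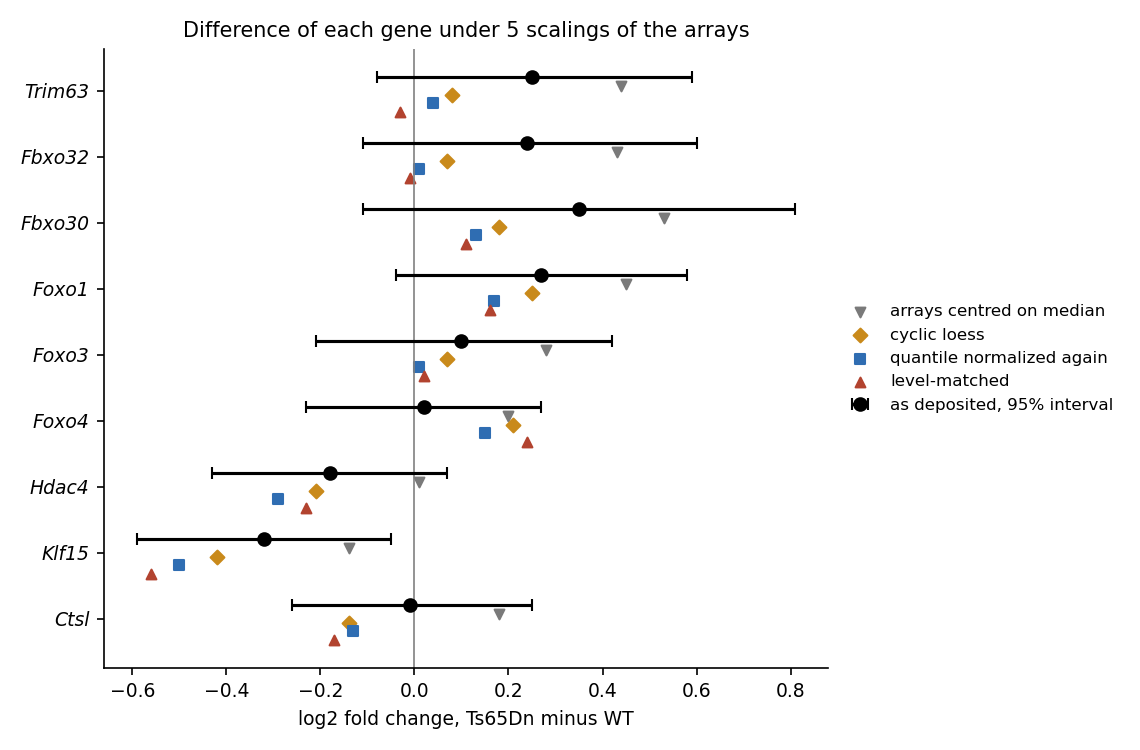
Log2 fold change (horizontal axis, Ts65Dn minus wild type) of the 9 genes as deposited, with its 95% interval, and under 4 other scalings of the arrays. Trim63 and Fbxo32 lie at 0.25 and 0.24 as deposited and at -0.03 and -0.01 after level matching, and Klf15 stays below 0 under each scaling.

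Although the groups did not differ by the test, Trim63 and Fbxo32 varied together from mouse to mouse. Over the 8 arrays Pearson's r between them was 0.96 (exact permutation p = 4.96e-04) and Spearman's rho 0.88 (exact permutation p = 0.00724). Among the 36 pairs of the 9 genes, the Benjamini-Hochberg adjusted p was 0.0179 for Pearson's r and 0.130 for Spearman's rho, so that the rank test did not pass. Without Ts65Dn replicate 4 and wild-type replicate 2, the arrays farthest from the median of Trim63, r was 0.91. It was 0.95 for deviations from the group means and 0.96 for level-matched values.

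The pair next in order was Trim63 and Foxo1, with r = 0.87 (exact permutation p = 0.00561, adjusted p = 0.101) and rho = 0.93 (exact permutation p = 0.00223, adjusted p = 0.0804), and r = 0.76 without the same 2 arrays. Fbxo32 and Foxo1 gave r = 0.74 (exact permutation p = 0.0368, adjusted p = 0.282) and 0.43 without those arrays. Trim63 and Hdac4 gave r = -0.76 (exact permutation p = 0.0299, adjusted p = 0.282). For Fbxo32 and Hdac4 r was -0.74 (exact permutation p = 0.0392, adjusted p = 0.282). With level-matched values r was 0.81 and 0.77 for Trim63 and Fbxo32 with Foxo1, and -0.01 and -0.17 with Hdac4. No pair other than Trim63 and Fbxo32 passed the adjustment by either measure. All values of 1 array share its RNA, labelling and scan.

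**Figure D3:**
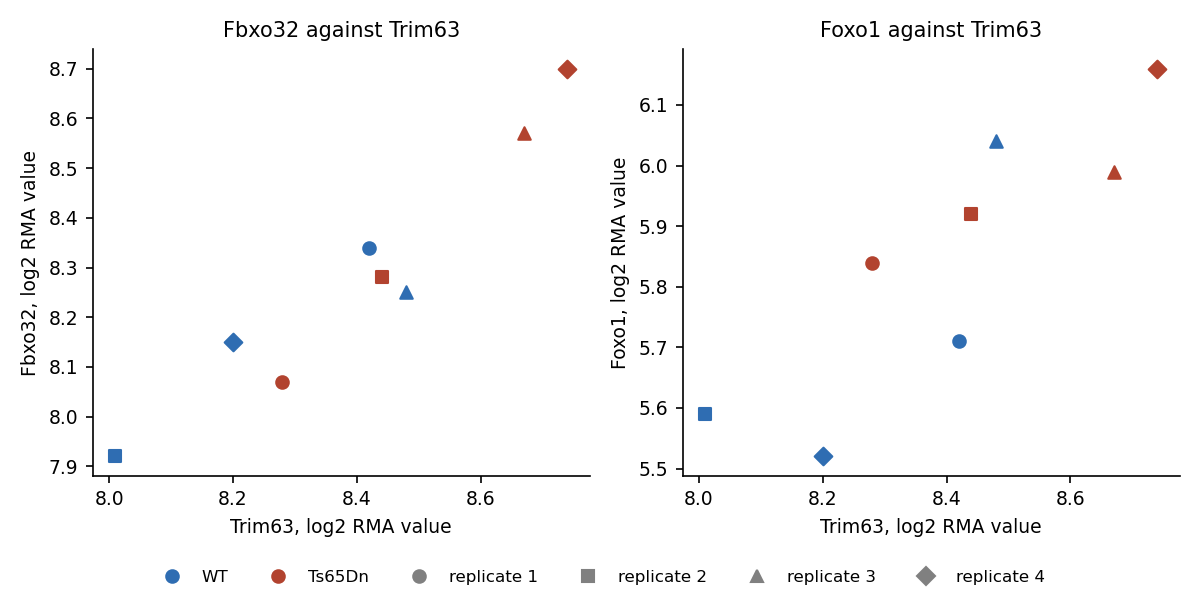
Log2 RMA values of Fbxo32 (left) and Foxo1 (right) against Trim63, 1 point per mouse, with wild type in blue, Ts65Dn in red and the replicate number given by shape. Both ligases are highest in Ts65Dn replicates 3 and 4 and lowest in wild-type replicate 2, with mice of both groups mixed between.

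Fbxo32 was also among the genes most like Trim63 in the whole table. Of 9968 other genes above the median level, ranked by Pearson's r of the deviations from the group means over the 8 arrays, the first 3 for Trim63 were Prss51 (0.967), Esd (0.959) and Fbxo32 (0.948). The first 3 for Fbxo32 were Sec14l1 (0.963), Mea1 (0.951) and Trim63 (0.948). With 8 arrays and so many genes, values of this size are given as a description. None of Prss51, Esd, Sec14l1 and Mea1 passed between the groups, with log2 fold changes of -0.30, 0.34, 0.52 and 0.01, the last of which was negative with quantile normalization, cyclic loess and level matching.

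The wider pathway was read from lists around the 9 genes. In these lists the called genes were all higher in Ts65Dn, beside 2.32% of all genes called higher and 2.94% called lower. Of all calls 44.0% were higher, against 92.0% after centring the arrays and 86.7% after cyclic loess. The called genes of these lists had limma adjusted p-values between 0.0456 and 0.0475. Of the 15 called genes in the 8 lists of the pathway, none was still called with quantile normalization, without any 1 of the 4 Ts65Dn arrays, or without wild-type replicate 2 or 3. With level matching or cyclic loess 1 was, Igf1r.

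Signalling upstream of FoxO had the highest median of these lists. Of 28 measured genes 24 had a positive log2 fold change, with a median of 0.47 (0.39 level-matched), 3 were called higher and 0 lower. The list holds inhibitors of Akt activity such as Mstn beside activators, so these counts give no direction for the pathway. Igf1r, the receptor for IGF-1, averaged 4.85 ± 0.17 in the Ts65Dn and 4.23 ± 0.18 in the control mice (SD, n = 4, on the log2 scale), a log2 difference (Ts65Dn minus wild type) of 0.61 (limma adjusted p = 0.0456) and of 0.95 level-matched. The kinase Stk4 (Mst1) rose by 0.81 (0.60 level-matched), and the insulin receptor substrate Irs1 by 1.03 (0.70 level-matched). The catalytic subunit of PI 3-kinase, Pik3ca, was at 1.02 and did not pass (limma adjusted p = 0.0531). The Akt kinases themselves were at -0.17 (Akt1, interval -0.52 to 0.19) and 0.27 (Akt2, interval -0.07 to 0.60), with limma adjusted p-values of 0.461 and 0.229. Level matching gave -0.33 and 0.10, and Akt1 became 0.02 after centring the arrays on their medians. Myostatin, Mstn, a muscle growth inhibitor that lowers Akt activity, was at 5.19 ± 0.26 against 4.79 ± 0.26 (SD, n = 4, log2 scale), with a limma adjusted p of 0.121 and a level-matched difference of 0.60.

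Of 27 other reported FoxO targets 20 were positive, with a median of 0.19 (0.04 level-matched), 3 called higher and 0 lower. The called genes were Sesn1 (1.1), a stress-induced inhibitor of mTORC1, catalase (Cat, 0.52) and Pdk4 (0.62), which switches muscle from glucose to fat. Gabarapl1, an autophagy gene, was at 0.51 (level-matched 0.19) and did not pass (limma adjusted p = 0.0735).

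Of 27 other ubiquitin ligases and adaptors studied in muscle 23 were positive, with a median of 0.38 (0.16 level-matched), 3 called higher and 0 lower. Cblb, which targets Irs1 in unloaded muscle, was at 6.90 ± 0.35 against 5.90 ± 0.48 (SD, n = 4, on the log2 scale), a log2 difference (Ts65Dn minus wild type) of 1.0 (limma adjusted p = 0.0475). Mdm2, the ligase for p53, rose by 0.78, and Asb2, which limits muscle mass, rose by 0.67 (0.33 level-matched). Nedd4, a ligase also induced by denervation, was at 0.59 and did not pass (limma adjusted p = 0.0518). The relatives of Trim63, named after their values were seen, were at 0.05 (Trim54, MuRF3) and 0.36 (Trim55, MuRF2), with limma adjusted p-values of 0.747 and 0.132, and at -0.10 and 0.01 level-matched.

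Among 21 ubiquitin, E1, E2 and deubiquitinase genes 1 was called higher and 0 lower, with a median of 0.13 (0.04 level-matched). It was Usp28, a deubiquitinase, at 8.19 ± 0.51 against 6.87 ± 0.56 (SD, n = 4, on the log2 scale), a log2 difference (Ts65Dn minus wild type) of 1.32 (limma adjusted p = 0.0456). Usp1 (0.99), Usp19 (0.54, level-matched 0.14), which is induced in atrophy, and Uchl1 (1.06) missed the threshold, at limma adjusted p-values of 0.0548, 0.0578 and 0.0645. Of 16 other cathepsins and lysosomal genes 0 were called by limma, with a median of 0.24 (0.11 level-matched). At an unadjusted p under 0.05, beside 34.8% of all genes (12.3% higher), 4 of them passed, all higher. Their smallest p-values were those of Lgmn (0.44, level-matched 0.12), Lamp2 (0.58, level-matched 0.27), Ctso (0.41) and Ctsa (0.34, level-matched 0.11), with limma adjusted p-values of 0.0981, 0.115, 0.118 and 0.121.

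Around Hdac4, 4 of 24 class IIa deacetylase, partner and denervation genes were called higher and 0 lower, with a median of 0.22 (0.16 level-matched). They were Hdac3 (0.78), the catalytic partner of class IIa deacetylases, the calcium-dependent kinase Camk2d (1.18), the receptor Eda2r (1.30) and Mef2a (0.68, level-matched 0.45), the factor that class IIa deacetylases repress. Around Klf15, 0 of 22 glucocorticoid and amino acid genes were called by limma, with a median of 0.06 (-0.09 level-matched). At an unadjusted p under 0.05, 7 of the 22 passed, beside 34.8% of all genes. Of these 7, 4 were higher and 3 lower, beside 12.3% and 22.6% of all genes. The glucocorticoid target Zbtb16 was at 0.68 (level-matched 0.41), the amino acid transporter Slc7a8 at -0.43 (level-matched -0.19), Dbt of branched-chain amino acid breakdown at 0.59 (level-matched 0.19) and the clock and glucocorticoid gene Per1 at -0.35, with limma adjusted p-values of 0.0568, 0.0672, 0.0850 and 0.107. The receptor itself, Nr3c1, was at 0.80 (limma adjusted p = 0.114), at 0.44 level-matched and at 0.13 without wild-type replicates 2 and 3. Bcat2, the first enzyme of that pathway and a target of Klf15, was named after its value was seen. It was at -0.37 (limma adjusted p = 0.203) and at -0.66 level-matched.

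Of 15 core clock genes 1 was called higher, Arntl (Bmal1, 1.69), and 0 lower. Arntl was at 7.40, 7.65, 7.24 and 5.93 in Ts65Dn and at 5.97, 4.88, 5.71 and 4.90 in wild type. Its groups thus overlapped, with Ts65Dn replicate 4 below wild-type replicate 1 (exact permutation p = 0.0571). Cry1 was at 0.91, Clock at 0.58 (level-matched 0.34) and Per2 at -0.36 (level-matched -0.11), with limma adjusted p-values of 0.0719, 0.119 and 0.122. Dbp, an output gene of the clock that was named after its values were seen, was at 5.51, 5.67, 6.17 and 7.22 in Ts65Dn and at 6.89, 6.80, 6.47 and 7.15 in wild type (limma adjusted p = 0.159). Muscles were taken at about the same time of day, per the series' text. Whether clock phase had a part in the value of Klf15 was not tested.

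**Figure D4:**
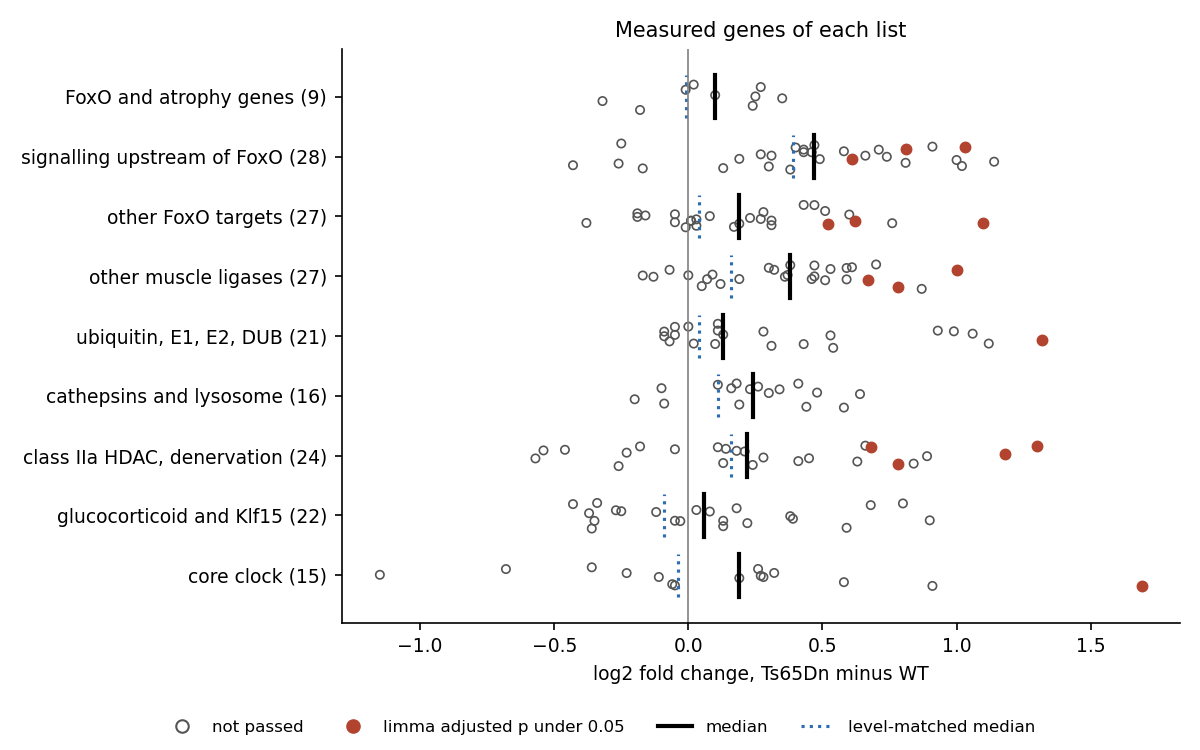
Log2 fold change (horizontal axis, Ts65Dn minus wild type) of every measured gene in the 9 FoxO and atrophy genes and in 8 lists around them, with the number of genes in brackets. Filled points passed limma at an adjusted p under 0.05, solid lines are medians and dotted lines level-matched medians. None of the 9 genes is filled, and the upstream signalling list has the highest median, 0.47.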

How the data were processed

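Total RNA of 8 soleus muscles was labelled as biotinylated cDNA with a whole-transcript amplification kit, per the labels' protocols, and hybridised to 1 array per mouse. The authors deposited gene-level log2 values made with Affymetrix Expression Console 1.1 and RMA, per the submitters' processing notes; that the scale is log2 was read from its range. For the build and annotation of the array the sources used here give no name. Of 35556 probe sets 21789 have 1 gene symbol, and RefSeq's GRCm38.p6 table gave current symbols by Entrez identifier. The probe set with the highest mean was kept per gene, which left 19938 genes.

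Ts65Dn was compared with wild type in R 4.3.3 through limma 3.58.1 (lmFit, then eBayes), two-sided, without covariates, with Benjamini-Hochberg adjustment over all 19938 genes. Single genes were also compared by an exact permutation test over all 70 splits, and pairs of genes by all orderings of the 8 arrays. Tests were tested on simulated data. In those for limma, values varied independently around each gene's mean, apart from added differences, without the shift with level seen in these arrays. They do not show how the test fares under such a shift. The 9 genes and the lists were chosen with earlier results of these data known. Named from each list are up to 4 genes with the smallest p, together with Akt1, Akt2, Mstn, Nr3c1, Eda2r, Cd68 and Adipoq, and for Trim63 and Fbxo32 the 3 genes most like them. Any other gene is marked as chosen once its values had been seen. Alternatives were other scalings (quantile, cyclic loess, median centring, level matching), genes above the median level, the mean of all probe sets, a replicate block, weights per array, robust eBayes with a trend, and leaving out arrays. Python 3.11.15 with pandas 2.3.3 and matplotlib 3.10.9 prepared tables and plots. With 4 arrays in each group, their number limits the precision.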

Additional observations from a re-analysis of the deposited data

Results flagged for a closer look

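Among 138 groups of 4 arrays looked at, for the 69 genes named with values here, 3 held an array far from the other 3, beside about 1 in 20 by chance. Sesn1 was at 6.32 in wild-type replicate 3 and at 6.82 to 6.90 in the other wild-type arrays. Usp19 was at 6.17 in the same array and at 6.71 to 6.79 in the others. Zbtb16 was at 7.49 in Ts65Dn replicate 3 and at 8.18 to 8.32 in the other Ts65Dn arrays. None of the 9 FoxO and atrophy genes was among them.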

How the results depend on the processing

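The limma count of 1049 genes was 1 with quantile normalization, 135 with cyclic loess, 90 with level matching, 436 among genes above the median level, 236 with array weights, 1 without both wild-type replicates 2 and 3, and 0 to 2865 with 1 array left out. With the replicate number as a block it was 0 (7014 genes at an unadjusted p under 0.05), with 0 of the 9 genes called. The labels do not pair the replicate numbers, the correlations of deviations of same-numbered arrays were 0.0117 to 0.0913, and not every array correlated best with its own number. At an unadjusted p under 0.05 there were 4470 genes with quantile normalization. Higher calls made up 44.0% of all calls, and 92.0% with centring and 86.7% with cyclic loess. Of the 9 genes 0 were called, and 0 to 1 with 1 array left out. Groups without overlap were found for 1 of the 9 genes (Klf15), beside 22.7% of all genes. With centring they were found for 2, Trim63 and Foxo1, and no longer for Klf15. Without both wild-type replicates 2 and 3 there were 2, and with 1 array left out 1 to 3. The share of all genes is not given for these alternatives, and fewer arrays separate more easily. Their counts are therefore not read as results about the 9 genes. The cause of these changes was not tested.

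Among 1237 single-gene values under alternatives, 32 changed sign, none of them for a gene that passed. With level matching, Trim63 was at -0.033, Fbxo32 at -0.0069, Trim54 at -0.10, Hdac9 at -0.26 and Mea1 at -0.25. With quantile normalization Trim54 was at -0.068, Hdac9 at -0.13 and Mea1 at -0.23, and with cyclic loess at -0.086, -0.050 and -0.16. With centring, Hdac4 was at 0.0051, Ctsl at 0.18, Akt1 at 0.018 and Hdac5 at 0.13. With array weights Ctsl was at 0.0092 and Hdac5 at 0.017. Without both wild-type replicates 2 and 3, Foxo3 was at -0.063, Foxo4 at -0.026, Ctsl at 0.0076, Hdac5 at 0.065 and Mea1 at -0.0083. With 1 array left out, Foxo4 ran from -0.017 to 0.065, Ctsl from -0.065 to 0.047, Hdac5 from -0.14 to 0.0066, Mea1 from -0.041 to 0.094 and Adipoq from -0.083 to 0.60.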

Other observations

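Of the 24 genes in the list around Hdac4, 5 with a role at the synapse or after denervation are given here. They were chosen after their values were seen, and they do not stand for the list. The receptor kinase Musk averaged 8.32 ± 0.31 among the Ts65Dn mice and 7.42 ± 0.50 among controls (SD, n = 4, on the log2 scale). Its log2 difference (Ts65Dn minus wild type) was 0.89 (limma adjusted p = 0.0529), and 0.57 level-matched (limma adjusted p = 0.118). The acetylcholine receptor subunit Chrnb1 was at 0.66 (limma adjusted p = 0.0521). The fetal receptor subunit Chrng was at 4.48 ± 0.19 against 5.05 ± 0.32 (-0.57, limma adjusted p = 0.0634), and the growth factor Gdf5 at 3.50 ± 0.12 against 4.05 ± 0.23 (-0.54, limma adjusted p = 0.0515). Myog, the myogenic factor that acts between Hdac4 and the ligases in denervated muscle, was at 6.16 ± 0.20 against 5.89 ± 0.24 (0.28, limma adjusted p = 0.216). None of these 5 genes passed. The dim genes Chrng and Gdf5 were at -0.31 and -0.30 after level matching.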
